A study of Homo sapiens with 40 samples.

Results

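The comparison set the membrane extract (ME) against the cytoplasmic extract (CE) of H1 cells on day 3 of mesoderm differentiation, with 2 libraries of each, 4 of the 40 libraries of the series. H1 is an established human embryonic stem cell line, here wild type. The cells had received BMP4, a ligand of the TGF-beta family, for the first day and bFGF, a fibroblast growth factor, afterwards, in a serum-containing medium. A fractionation kit lysed them in steps: a mild buffer released CE, the next buffer released ME, and the pellet then gave the soluble nuclear extract (SNE) and 2 later fractions. Libraries labelled INPUT were read as RNA of unfractionated cells. Day 0 cells, which carry no treatment label, and day 5 cells of the same protocol were extracted in the same way and served for comparison. The kit is made for proteins, and both extracts come from whole cultures of 1 line. Nothing in the labels says that the paired libraries of an extract came from separate cultures, so p-values measure the spread between these libraries, which may be technical. Of 57939 genes listed, 16746 reached 1 TPM (the share of a library per unit of transcript length) in at least 2 of the 4 libraries and were compared.

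Messenger RNAs are sorted in the cytoplasm chiefly by the protein they encode. When a hydrophobic signal sequence or membrane segment leaves the ribosome, the signal recognition particle carries ribosome and mRNA to the translocon of the endoplasmic reticulum (ER), so mRNAs of secreted and membrane proteins are found on the ER surface. Histones, ribosomal proteins, glycolytic enzymes and most nuclear-encoded mitochondrial proteins are made on free ribosomes. Tail-anchored proteins, whose single hydrophobic segment lies at the very end, are inserted after translation has finished.

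The signal that directs an mRNA to the ER is often written in the first codons of its coding sequence. The following starts are shown as examples of genes with and without such a stretch. Each line gives the first 90 coding bases of the GENCODE 29 transcript (GRCh38), 5′ to 3′ on the coding strand. Capitals mark the codons of the most hydrophobic window of 11 residues among the first 40 where its mean Kyte-Doolittle hydropathy reached 2.0, as far as the 90 bases go, and a line without capitals had no such window. AGRN (agrin, first coding exon chr1:1020173-1020373), FN1 (fibronectin, chr2:215435655-215435802), NOTCH3 (a Notch receptor, chr19:15200788-15200905), HSPA5 (the ER chaperone BiP, chr9:125241005-125241126) and SSR4 (a subunit of the translocon-associated complex, chrX:153794688-153794754) carry one. DYNC1H1 (the dynein heavy chain, chr14:101964692-101964947), HMGCS1 (a cytosolic synthase of the sterol pathway, chr5:43298518-43298965) and GAPDH (the glycolytic enzyme, chr12:6534833-6534861) do not.
AGRN: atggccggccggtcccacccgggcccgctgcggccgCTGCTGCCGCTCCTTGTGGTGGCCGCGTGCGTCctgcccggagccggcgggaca
FN1: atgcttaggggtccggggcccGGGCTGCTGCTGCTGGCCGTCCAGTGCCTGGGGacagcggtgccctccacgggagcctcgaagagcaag
NOTCH3: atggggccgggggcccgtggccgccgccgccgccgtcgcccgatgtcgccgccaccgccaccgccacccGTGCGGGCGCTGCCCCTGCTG
HSPA5: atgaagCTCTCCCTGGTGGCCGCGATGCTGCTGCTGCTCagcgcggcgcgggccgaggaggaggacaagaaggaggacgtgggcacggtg
SSR4: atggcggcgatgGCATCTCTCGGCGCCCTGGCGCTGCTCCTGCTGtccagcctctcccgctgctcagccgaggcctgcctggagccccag
DYNC1H1: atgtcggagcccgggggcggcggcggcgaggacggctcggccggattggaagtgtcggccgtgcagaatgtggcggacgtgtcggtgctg
HMGCS1: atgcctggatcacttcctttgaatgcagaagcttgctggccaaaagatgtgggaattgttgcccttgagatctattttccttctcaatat
GAPDH: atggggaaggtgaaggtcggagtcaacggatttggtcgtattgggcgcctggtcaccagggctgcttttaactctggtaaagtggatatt

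With mitochondrial transcripts counted, the extracts were far apart. Genes named MT-, the 37 genes of mitochondrial DNA, took 1.86% and 1.83% of the 2 CE libraries and 47.7% and 54.7% of the 2 ME libraries. Over the 3 days the share was 53.0% ± 6.46 in ME and 1.63% ± 0.187 in CE (SD, n = 6 each), with no overlap (two-sided exact permutation test within days, p = 0.00926, the smallest that its 216 permutations allow). These genes were therefore left out and every library was rescaled to the same total. The depth estimated from the steps between values was 1447639 to 2836635 gene reads a library, so that 1 read on a transcript of 1 kb was worth 0.727 to 2.85 TPM after rescaling. This estimate is rough, since 58.0% to 59.3% of values of up to 20 reads came within 0.02 of a whole number. Pearson's r between replicates was 0.980 in CE and 0.947 in ME, against 0.888 to 0.926 between a CE and an ME library (log2 values, across genes, which are not independent). Stage markers matched the label only in part. In the 4 libraries MIXL1, a primitive streak factor, stood at 17.1 to 57.9 TPM and HAND1, a mesoderm factor, at 48.4 to 65.8. The streak factor TBXT was low, at 6.71 to 7.97 TPM. Of the other mesoderm markers EOMES stood at 24.4 to 33.5 TPM, but GATA4, GATA6, FOXF1, ISL1, MESP1, PDGFRA and CDX2 at 0.117 to 5.69. The endoderm marker CER1 stood at 28.5 to 62.6 TPM, and SOX17 and FOXA2 at 0 to 1.48. The pluripotency factor POU5F1 was still present, at 55.3 to 126.4 TPM, as were NANOG (189.9 to 202.7) and LIN28A (1478 to 1552). SOX2 was listed at 0, also in INPUT of day 0.

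Most transcripts that remained held a larger share of ME than of CE. The difference of mean log2(TPM + 1), ME minus CE, was positive for 13299 of 16746 genes, and its median was 0.70. A gene was called higher or lower at an adjusted p under 0.05 (limma, Benjamini-Hochberg) with an absolute difference of at least 1, which gave 4923 genes higher in ME (29.4% of those tested) and 537 lower (3.21%). When the 4 libraries were first shifted to a common median the split turned to 575 higher (3.43%) and 2157 lower (12.9%). Without the first ME replicate 829 genes were lower. Histone mRNAs alone summed to 14.7% and 13.1% of the CE libraries against 5.34% and 5.01% of the ME libraries. Differences are therefore read below against the median gene, at 0.70, and both counts are given. The background of every list count is 29.4% higher and 3.21% lower, or 3.43% and 12.9% with a common median. In bulk extracts a share of a library does not tell the amount of RNA in a cell, and fewer cells and less RNA per cell cannot be told apart.

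The call of single genes depended on the same choice. Among the genes named below as higher, FGFR1, CDH2, ITGB1, SLC2A1, LAMP1, EDN1, PDIA3, HYOU1, TRAM2, SPCS3, SQLE, SCD, SREBF1, FASN, ACACA, CLTC, MAVS, VAMP1, EIF4G1, EIF3A, CAD, NR2F2, TRIM71, ARID1A, MALAT1 and NORAD lost their call with a common median. FDPS, COX4I1, RPLP0, EEF1A1, GAPDH, LDHA, H1-4 and CDC20, named below as not called, were called lower with it. Leaving out 1 library also ended some calls. The size went under 1 without the first CE library for LAMP1 (0.96), TRAM2 (0.94), SPCS3 (0.93), NORAD (0.98), RPS6 (-0.93) and POU5F1 (-0.99), without the second for BIRC5 (-0.95), without the first ME library for RPS6 (-0.97), and without the second for ARF5 (-0.97), BIRC5 (-0.89) and POU5F1 (-0.97). HYOU1, HRAS and IFI27L2 lost theirs without either CE library (adjusted p, limma, 0.0753 and 0.0898, 0.0507 and 0.0524, and 0.0826 and 0.0595).

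**Figure D1:**
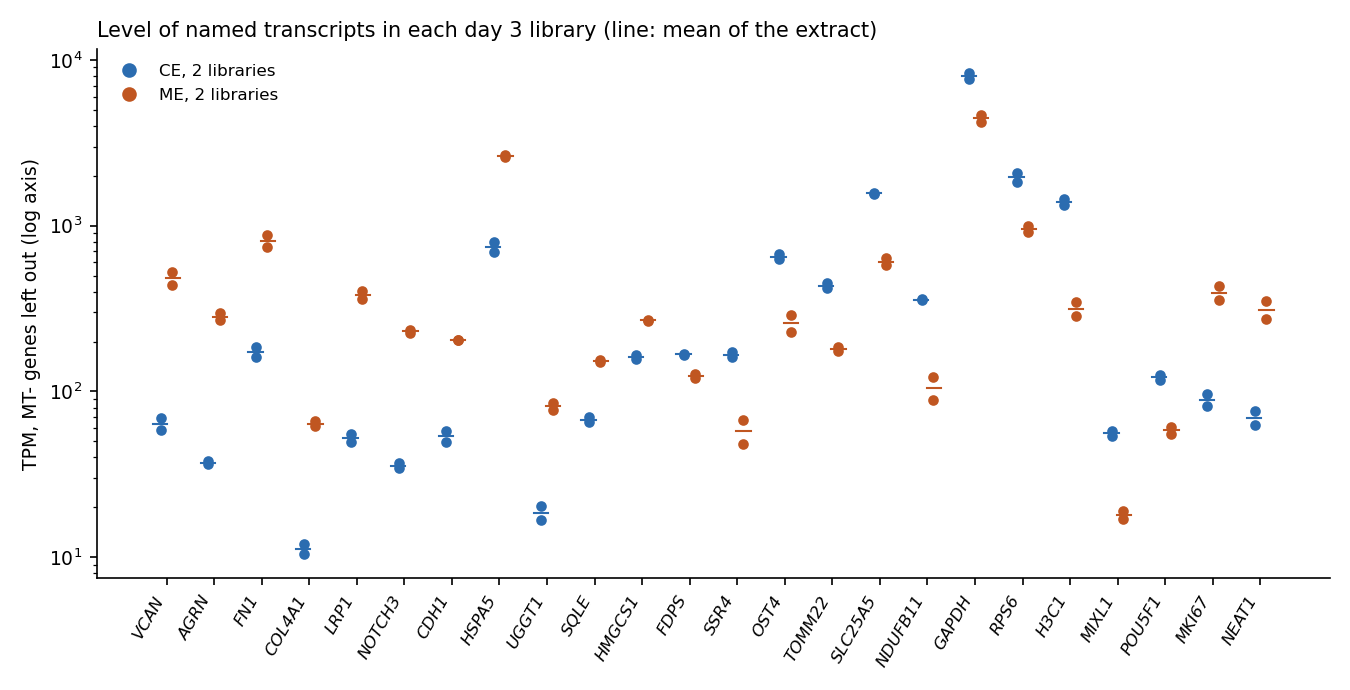
Level of 24 named transcripts (log axis, TPM after MT- genes were left out) in the 2 CE libraries (blue) and the 2 ME libraries (orange) of day 3, with a line at each mean. VCAN, AGRN, FN1 and HSPA5 sit several-fold higher in ME, while NDUFB11, RPS6, H3C1 and MIXL1 sit lower. The libraries of the extracts overlap for none of the genes shown.

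Messenger RNAs of extracellular matrix proteins were the furthest into ME of the coding lists. Of 53 tested, 44 were called higher and 0 lower (background 29.4% and 3.21%), 32 were higher with a common median (background 3.43%), and their median was 1.96 against 0.70 for all genes. VCAN, the large proteoglycan versican, stood at 58.7 and 69.4 TPM in CE and at 440.5 and 525.9 in ME, a difference of 2.90 ± 0.14 (SE, adjusted p = 0.00108, limma). AGRN, a heparan sulphate proteoglycan of basement membranes, stood at 36.5 and 37.96 in CE and at 268.9 and 296.6 in ME (2.89 ± 0.10). The ME libraries of both genes lay far above their CE libraries. No member of the list overlapped between the extracts (53 of 53, background 71% of genes), and the smallest difference among them was 0.36. FN1, the fibril protein fibronectin, was the most abundant matrix anchor, with 161.5 and 185.5 TPM in CE and 744.9 and 876.4 in ME (2.22 ± 0.12). COL4A1, a chain of type IV collagen, had 10.4 and 12.1 against 62.0 and 66.0 (2.41 ± 0.12), and LAMA1, a laminin chain, had 4.34 and 4.62 against 22.0 and 23.8 (2.12 ± 0.13). COL12A1, a fibril-associated collagen (2.77), and FREM2, a membrane-anchored matrix protein (2.74), completed the largest of the list.

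Receptors and adhesion molecules of the cell surface followed. Of 72 signalling receptors 59 were called higher (81.9%, background 29.4%) and 0 lower (25 and 0 with a common median; median 1.45). LRP1, an endocytic receptor, went from 49.3 and 55.3 TPM in CE to 359.1 and 401.3 in ME (2.84 ± 0.11). NOTCH3 went from 34.4 and 37.2 to 226.3 and 234.2 (2.65 ± 0.10), its paralog NOTCH2 differed by 2.53 ± 0.14 and CELSR2, a seven-pass cadherin, by 2.47 ± 0.12. FGFR1, a receptor for the bFGF of the medium, had 96.9 and 103.8 against 247.4 and 245.7 TPM (1.29 ± 0.09).

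Adhesion and junction proteins gave 37 of 56 higher (66.1%, background 29.4%) and 0 lower (9 and 1 with a common median; median 1.31). CDH1, the epithelial E-cadherin, stood at 49.5 and 57.6 TPM in CE and at 204.2 and 205.4 in ME (1.92 ± 0.11), and CDH2, the N-cadherin of mesenchymal cells, at 15.8 and 18.03 and at 46.6 and 54.5 (1.52 ± 0.13). The giant cadherins FAT1 (2.50) and DCHS1 (2.35), the collagen-binding integrin ITGA2 (2.11) and the protocadherin PCDH18 (2.10) had the largest differences. ITGB1, the common integrin beta chain, reached 1.17 ± 0.11.

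Transporters were shifted less. Of 67 solute carriers and ion pumps 36 were called higher (53.7%, background 29.4%) and 0 lower (6 and 1 with a common median; median 1.07). SLC7A11, the cystine exchanger, had 40.9 and 51.8 TPM in CE and 175.5 and 238.9 in ME (2.13 ± 0.20). SLC4A7, a bicarbonate transporter (1.99), and PIEZO1, a mechanosensitive channel (1.86), were next. The glucose transporter SLC2A1 differed by 1.41 ± 0.12. SLC7A5, a transporter of large amino acids, at 0.95 ± 0.08, was not called.

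Secreted signals, ER enzymes and proteins of the lysosome and Golgi lay near the median gene as lists, with wide spread inside each. Secreted signalling proteins gave 18 of 57 higher and 0 lower (2 and 4 with a common median; median 0.65). INHBA, the activin A subunit, stood at 7.59 and 11.2 TPM in CE and at 36.3 and 45.8 in ME (2.03 ± 0.22), IGFBP5, which binds insulin-like growth factors, differed by 1.82 ± 0.13 and EDN1, the precursor of endothelin, by 1.65 ± 0.12. BMP4, abundant at 351.7 to 574.8 TPM, differed by 0.61 ± 0.09, and DKK1, a WNT inhibitor at 2.03 to 6.08 TPM, by -0.24 ± 0.48. Neither was called. Lysosomal and Golgi proteins gave 21 of 55 higher and 0 lower (2 and 9 with a common median; median 0.73). GLG1, a Golgi sialoglycoprotein, reached 2.07, the lysosomal membrane protein LAMP1 1.04 and the saposin precursor PSAP 1.00, the last just under the threshold.

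Among ER chaperones 10 of 34 were called higher and 0 lower (1 and 4 with a common median; median 0.76), and their 29.4% higher is the share of all genes. HSPA5 was the only one of them called with a common median. It stood at 696.5 and 801.3 TPM in CE and at 2581 and 2671 in ME (1.81 ± 0.10). PDIA3, a disulphide isomerase, rose from 148.7 and 164.0 to 469.5 and 524.0 (1.66 ± 0.10). HYOU1, a large ER chaperone (1.57 ± 0.34), varied between the ME libraries, at 188.2 and 330.9 TPM. CALR, the lectin chaperone calreticulin, differed by only 0.41 ± 0.08, at 1517 and 1632 TPM in CE and 2096 and 2074 in ME, although its start holds a hydrophobic stretch.

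The machinery of N-glycosylation and translocation had members on both sides. Of 31 glycosylation enzymes 7 were called higher and 2 lower (3 and 6 with a common median; median 0.63). UGGT1, the folding sensor (2.08), ALG10, a glucosyltransferase with many membrane segments (1.91), and GANAB, the glucosidase II catalytic chain (1.79), were higher. GANAB went from 187.9 and 216.1 TPM in CE to 714.1 and 686.5 in ME. OST4, a very small subunit of oligosaccharyltransferase, went the other way, from 626.0 and 677.4 to 290.1 and 227.5 (-1.34 ± 0.14), as did DPM3, a small subunit of dolichol-phosphate mannose synthase (-1.14 ± 0.09). STT3A, a catalytic subunit of oligosaccharyltransferase, stood at 0.84 ± 0.10, not called.

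Translocon and targeting genes gave 2 of 26 higher and 2 lower (0 and 8 with a common median; median 0.21). TRAM2 (1.09), a translocating-chain protein, and SPCS3 (1.03), a signal peptidase subunit, were higher. SSR4, whose coding start holds a hydrophobic stretch, stood at 160.4 and 173.2 TPM in CE and at 67.7 and 48.5 in ME (-1.52 ± 0.18). SEC61G, the small gamma subunit of the channel, stood at 98.6 and 93.9 against 45.2 and 45.0 (-1.08 ± 0.09). The large channel subunit SEC61A1 was at 0.92 ± 0.11 and was not called.

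Sterol and lipid enzymes allowed a further comparison, since some are cytosolic and others sit in the ER membrane. Of 49 lipid enzymes of the ER membrane 16 were called higher and 0 lower (0 and 7 with a common median; median 0.71), a share of 32.7% and a median near those of all genes, 29.4% and 0.70. Of 19 of the cytosol 3 were higher and 1 lower (0 and 5; median 0.37), a share of 15.8%. SQLE, squalene epoxidase of the ER, had 65.3 and 69.9 TPM in CE and 150.1 and 155.2 in ME (1.16 ± 0.09). HMGCS1, the cytosolic synthase, had 157.3 and 165.9 against 267.8 and 270.0 (0.73 ± 0.09). FDPS, farnesyl diphosphate synthase, had 168.3 and 166.4 against 128.0 and 121.4 (-0.42 ± 0.09). Of the 3, SQLE alone was called, and the libraries of the extracts did not overlap for any. SCD, the stearoyl desaturase (1.09), and SREBF1, the membrane-bound precursor of a sterol regulator (1.77), were higher, and the cytosolic kinase PMVK was lower (-1.10). The long mRNAs of the cytosolic fatty acid enzymes ACACA (1.44) and FASN (1.15) were nevertheless higher, FASN from 600.7 and 619.2 TPM to 1371 and 1346.

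Tail-anchored membrane proteins and coat proteins made in the cytosol had medians below that of all genes, as translocon genes did (0.21). Tail-anchored proteins gave 3 of 55 higher and 4 lower (0 and 18 with a common median; median 0.07). TOMM22, a receptor of the outer mitochondrial membrane, had 418.9 and 450.0 TPM in CE and 184.7 and 176.3 in ME (-1.26 ± 0.09), and TOMM7, of the same complex, -1.23 ± 0.09. MAVS, the antiviral adaptor with a long mRNA, was higher (1.13 ± 0.11), as was the vesicle protein VAMP1 (1.22 ± 0.16), and VAPA, of ER contact sites, stood at 0.19 ± 0.10. Coat and vesicle proteins made in the cytosol gave 3 of 41 higher and 3 lower (0 and 10; median 0.44), with the clathrin heavy chain CLTC higher (1.18) and the small ARF5 (-1.21) and AP2S1 (-1.17) lower.

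**Figure D2:**
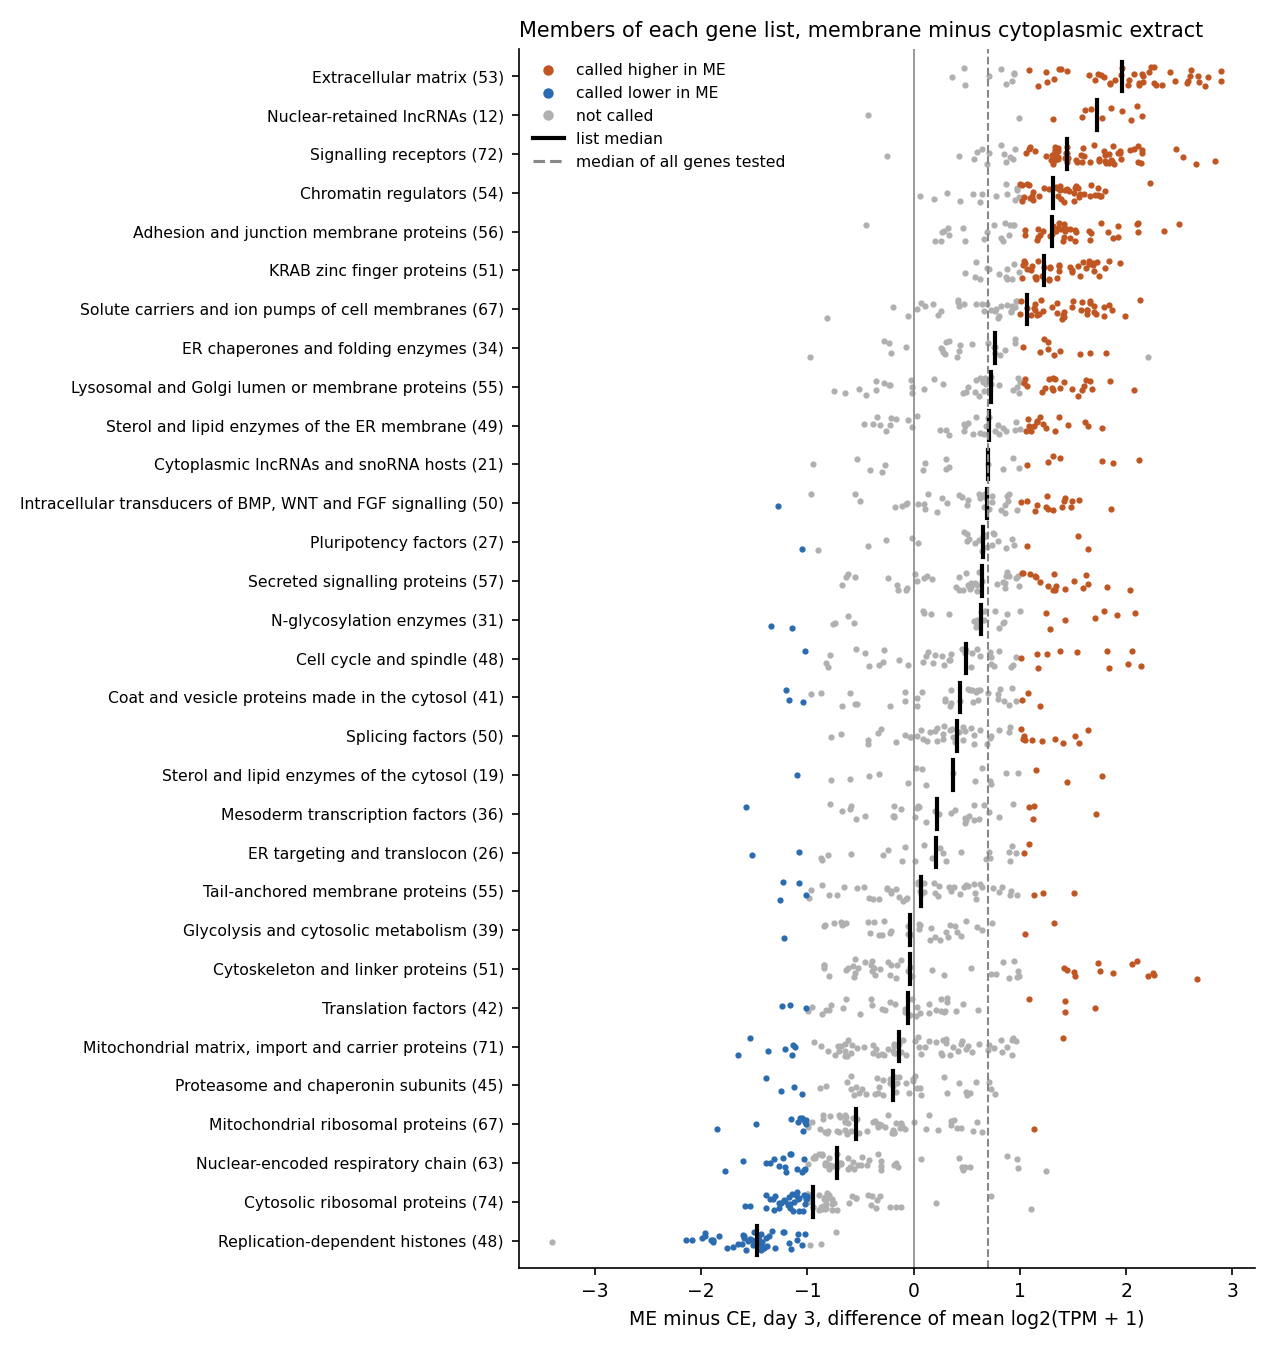
Difference between ME and CE on day 3 (horizontal axis, difference of mean log2(TPM + 1)) for each member of 31 gene lists, 1 point a gene, with the number tested in brackets. Orange points were called higher, blue points lower, black bars are list medians and the dashed line is the median of all genes at 0.70. Extracellular matrix lies furthest right of the coding lists and histones furthest left.

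Nuclear-encoded mitochondrial proteins had their mRNAs on the CE side, opposite to the transcripts of mitochondrial DNA. The respiratory chain gave 0 of 63 higher and 16 lower (0 and 50 with a common median; median -0.73). NDUFB11, a complex I subunit, stood at 358.2 and 359.2 TPM in CE and at 121.8 and 89.2 in ME (-1.77 ± 0.16), and UQCR10, of complex III, at 288.1 and 268.9 and at 88.5 and 93.5 (-1.6 ± 0.09). COX4I1, of complex IV, differed by -0.84 ± 0.09 and SDHA, the large flavoprotein of complex II, by 0.88 ± 0.10, neither called. Matrix, import and carrier proteins gave 1 of 71 higher and 7 lower (0 and 30; median -0.13). The ADP/ATP carrier SLC25A5, which spans the inner mitochondrial membrane several times, fell from 1562 and 1571 TPM in CE to 635.1 and 579.5 in ME (-1.37 ± 0.09). The protease CLPP (-1.65) and the import chaperone TIMM8B (-1.54) were lower too, while the chaperonin HSPD1 stood at 0.04 ± 0.08. Mitochondrial ribosomal proteins gave 1 of 67 higher and 11 lower (0 and 44; median -0.55), led by MRPL54 (-1.85).

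Histone mRNAs were lower in ME. Of 48 replication-dependent histones 44 were called lower and 0 higher (47 lower with a common median; median -1.47), and in all 48 both ME libraries lay below both CE libraries (background 14.5% of genes). H3C1 stood at 1331 and 1456 TPM in CE and at 346.4 and 284.2 in ME (-2.15 ± 0.12), and H4C1 at 1737 and 1534 and at 401.5 and 365.2 (-2.09 ± 0.10). The linker histone H1-4 stood at 6591 and 5961 in CE and at 4197 and 3389 in ME (-0.73 ± 0.13, not called). Histone genes are near-identical copies, so values of single genes depend on how shared reads were assigned.

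Cytosolic ribosomal proteins gave 31 of 74 lower and 0 higher (68 lower with a common median; median -0.95), and together they took 9.64% and 8.79% of the CE libraries and 4.92% and 4.86% of the ME libraries. RPL13, of the large subunit, stood at 1776 and 1615 TPM in CE and at 594.2 and 567.7 in ME (-1.54 ± 0.09), and RPS6, of the small subunit, differed by -1.03 ± 0.10. RPLP0, of the ribosomal stalk, was at -0.82 ± 0.09.

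Other cytosolic lists lay between. Translation factors gave 4 of 42 higher and 3 lower (0 and 17 with a common median; median -0.05): the scaffold EIF4G1 (1.43) and EIF3A (1.42), both with long mRNAs, were higher, EIF3I, a small eIF3 subunit, was lower (-1.24), and the elongation factor EEF1A1 stood at -0.29 ± 0.09. Glycolysis and cytosolic metabolism gave 2 of 39 higher and 1 lower (0 and 16; median -0.03). GAPDH had 8297 and 7637 TPM in CE and 4670 and 4216 in ME (-0.84 ± 0.09), lactate dehydrogenase LDHA had -0.75 ± 0.10 and pyruvate kinase PKM 0.05 ± 0.08, all below the median gene and none called, while CAD, the long multi-enzyme of pyrimidine synthesis, was higher (1.32). Proteasome and chaperonin subunits gave 0 of 45 higher and 4 lower (0 and 22; median -0.19), with PSMB6 at -1.39. The chaperone HSPA8, at 3479 and 3480 TPM in CE and 4912 and 4910 in ME, stood at 0.50 ± 0.07.

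Cytoskeletal and cell cycle mRNAs were spread over both sides. Cytoskeleton and linker proteins gave 13 of 51 higher and 0 lower (7 and 20 with a common median; median -0.04), and their 25.5% higher is near the 29.4% of all genes. The 3 named with the largest rise encode giant proteins: DYNC1H1 had 45.2 and 53.4 TPM in CE and 289.4 and 346.2 in ME (2.66 ± 0.14), MACF1, a spectraplakin, differed by 2.20 and PLEC, plectin, by 2.10. ACTB, beta-actin, stood at -0.12 ± 0.09 and VIM, vimentin, at -0.06 ± 0.09. Cell cycle genes gave 11 of 48 higher and 1 lower (5 and 10; median 0.49), shares of 22.9% and 2.08% beside 29.4% and 3.21% of all genes. The long MKI67 (2.14) and CENPF (2.02) were higher, the survivin gene BIRC5 was lower (-1.02) and CDC20 stood at -0.46 ± 0.09.

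Factors of the differentiation also had members on both sides. Of the mesoderm and of the pluripotency list 11.1% each were called higher, beside 29.4% of all genes. Called lower were 2.78% and 3.7%, 1 gene in each list, near the 3.21% of all genes. Mesoderm transcription factors gave 4 of 36 higher and 1 lower (0 and 5 with a common median; median 0.22). MIXL1 had 57.9 and 54.2 TPM in CE and 17.1 and 19.1 in ME (-1.58 ± 0.11). NR2F2, a nuclear receptor, rose from 9.49 and 11.01 to 32.7 and 39.2 (1.71 ± 0.15), whereas TBXT (-0.18 ± 0.13) and HAND1 (0.04 ± 0.18) were not called. Pluripotency factors gave 3 of 27 higher and 1 lower (0 and 4; median 0.65), with TRIM71 higher (1.64), POU5F1 lower, at 126.4 and 116.9 TPM in CE and 61.5 and 55.3 in ME (-1.05 ± 0.11), and DNMT3B at 0.67 ± 0.08. Transducers of BMP, WNT and FGF signalling gave 15 of 50 higher and 1 lower (1 and 4; median 0.69). Their shares of 30% and 2% and their median are near those of all genes, 29.4%, 3.21% and 0.70. TCF7L2 stood at 1.86, HRAS at -1.28 and beta-catenin (CTNNB1) at 0.86 ± 0.10. POU5F1 and HRAS have related copies in the genome, so their counts are less certain.

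Nuclear-retained lncRNAs were also higher in ME than in CE. So were mRNAs of chromatin regulators and KRAB factors, lists that go by where the protein works, not the mRNA. Nuclear-retained lncRNAs gave 10 of 12 higher and 0 lower (5 and 1 with a common median; median 1.72), chromatin regulators 40 of 54 (2 and 0; median 1.31) and KRAB zinc finger genes 38 of 51 (3 and 0; median 1.23), each with 0 lower. The shares called higher, 83.3%, 74.1% and 74.5%, stand beside 29.4% of all genes. MALAT1, a lncRNA of nuclear speckles, had 2694 and 2684 TPM in CE, 5935 and 7458 in ME (1.31 ± 0.12), and 21300 and 20350 in SNE. NEAT1, the scaffold of paraspeckles, had 62.5 and 76.0, 271.8 and 350.8 (2.15 ± 0.17), and 1489 and 1441. ME thus lay between CE and SNE for both. The 12 nuclear lncRNAs summed to 0.313% and 0.319% of CE, 0.727% and 0.902% of ME and 2.48% and 2.38% of SNE. KMT2A, a histone methyltransferase (2.22), ARID1A, a chromatin remodeller (1.56), and ZNF91, a KRAB factor (1.95), are examples of the coding lists. The part of nuclear RNA in the differences between ME and CE was not tested.

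Beside SNE the lists stood apart from each other. Of the 4923 genes called higher than in CE, 676 (13.7%) had both ME libraries above both SNE libraries and 3821 (77.6%) had both below. Over all genes tested ME lay above SNE in 24.9% and below it in 58.5%, and the median of ME minus SNE was -0.44. ER chaperones lay above SNE for 23 of 34 (median difference 0.60), glycosylation enzymes for 21 of 31 (0.44) and secreted signals for 30 of 57 (0.30). So did lists of nuclear, cytosolic and mitochondrial proteins, with histones above for 47 of 48 (1.17), ribosomal proteins for 65 of 74 (0.66), the respiratory chain for 39 of 63 (0.46) and the proteasome for 29 of 45 (0.45). By contrast, chromatin regulators lay above for 4 of 54 (-0.69) and KRAB factors for 2 of 51 (-1.19). Extracellular matrix had 18 of 53 above and 27 below (-0.13), and receptors 26 of 72 above and 41 below (-0.19), where 56.9% below stands beside 58.5% of all genes. HSPA5 stood at 1100 and 1121 TPM in SNE, PDIA3 at 186.6 and 189.3, GANAB at 338.7 and 340.8 and SCD at 707.7 and 717.9, all under their ME libraries. AGRN (241.0 and 233.3), NOTCH3 (184.7 and 182.7) and CDH1 (140.4 and 141.8) were under them as well. FN1 (717.2 and 710.3) lay just under its ME libraries, COL4A1 (63.5 and 64.3) overlapped with them, and LRP1 (525.0 and 517.4), VCAN (574.1 and 574.2), DYNC1H1 (503.1 and 489.3), MKI67 (511.2 and 534.1) and SLC4A7 (291.7 and 288.1) were higher in SNE than in ME.

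Unfractionated cells were set beside both extracts. ME against INPUT gave 306 genes higher (1.83%) and 459 lower (2.74%), with a median of 0.02, and INPUT against CE gave 4452 higher (26.6%) and 81 lower (0.484%), with a median of 0.48. These comparisons share the INPUT libraries with each other. Genes higher in ME than in INPUT included HSPA5 (1.31), PDIA3 (1.3), GANAB (1.32), NOTCH3 (1.28), PCDH18 (1.27), AGRN (1.22), EDN1 (1.16), FN1 (1.11) and CDH1 (1.08). For HSPA5, PDIA3, GANAB, PCDH18, EDN1 and CDH1 the other step, INPUT minus CE, was not called (0.36 to 0.84). For MKI67 (0.71), KMT2A (0.46), MACF1 (0.08) and ZNF91 (-0.24), ME minus INPUT was not called, and INPUT was higher than CE, by 1.43, 1.77, 2.12 and 2.18. Medians of ME minus INPUT were 0.74 for extracellular matrix, 0.57 for receptors, 0.56 for adhesion and 0.47 for ER chaperones, against 0.22 for chromatin regulators, 0.08 for KRAB factors and -1.02 for histones. Medians of CE minus INPUT were -1.22 for extracellular matrix, -1.01 for receptors and -0.21 for ER chaperones, and 0.51 for histones and 0.29 for ribosomal proteins.

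Across all coding genes the difference followed the length of the annotated transcript. Below 1 kb the median was -0.60, with 6.41% of 702 genes called higher and 25.9% lower. It was 0.02 from 1 to 2 kb, 0.45 from 2 to 3 kb, 0.75 from 3 to 5 kb, 1.06 from 5 to 8 kb and 1.32 over 8 kb, where 75% of 903 genes were called higher and 0.111% lower. Spearman's rho of difference and length was 0.61 over 12469 coding genes, which share the same 4 libraries, and 0.59 to 0.63 inside each class of predicted protein. TPM already divides by length. The GENCODE transcript is not always the isoform present, and its length enters TPM, so the measure and the length are not independent.

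Predicted proteins were sorted by hydropathy. Proteins with no hydrophobic stretch (7933 genes) had a median of 0.56, with 22.8% called higher and 3.78% lower. Those with a stretch only in the first 40 residues, as in a signal sequence, had 0.69 (1045 genes, 30.7% and 2.11%), and those with a window of 19 residues averaging at least 1.6 further on, as in a membrane segment, had 0.81 (3491 genes, 37% and 0.802%). With 7 or more such stretches the median was 1.00 and 50.6% of 328 genes were called higher. In each of the 6 length ranges both classes with a stretch lay above the class without. From 3 to 5 kb the medians were 0.68 without a stretch, 0.89 with an N-terminal stretch only and 0.84 with a further one, and below 1 kb they were -0.69, -0.37 and -0.29. The window misses some membrane proteins, SLC25A5 among them, and catches some soluble ones, such as FASN and KMT2A.

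**Figure D3:**
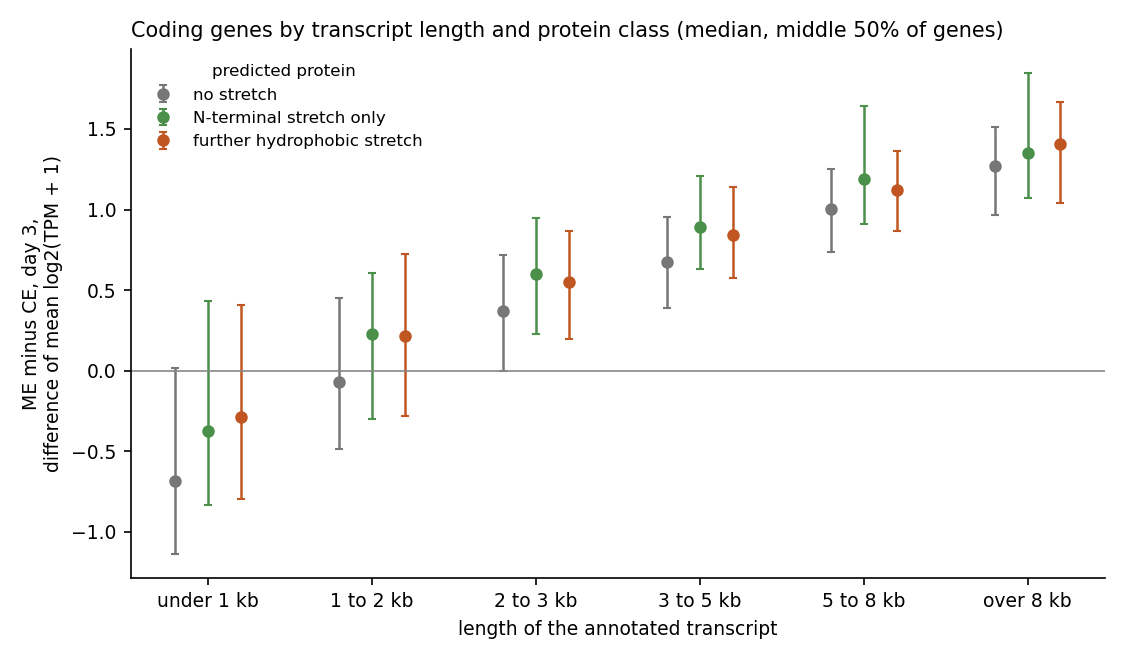
Difference between ME and CE on day 3 (vertical axis) for coding genes in 6 ranges of transcript length (horizontal axis), split by predicted protein: points are medians and bars the middle 50% of genes, not errors. Medians climb from below 0 under 1 kb to at least 1.27 over 8 kb, and the grey points of proteins with no stretch are the lowest in every range.

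Each gene was also set against the median of coding genes of its own length bin (20 bins, chosen after the data were seen). The end bins were wide: RNAs of 42 and of 888 bases shared the lowest, and transcripts of 10724 and 20003 bases the highest. The match in length is therefore loose for the shortest and the longest transcripts. Structured RNAs (median 295 bases) and histones (450) were the shortest lists. Extracellular matrix lay 0.94 above genes of its length (45 of 53 members above), KRAB factors 0.59 (42 of 51), receptors 0.53 (62 of 72), adhesion 0.44 (49 of 56), transporters 0.36 (52 of 67) and ER chaperones 0.25 (24 of 34). Cytoplasmic lncRNAs lay at 0.58, nuclear-retained lncRNAs at 0.51, the 5 structured RNAs at 1.2 and the nuclear copies of mitochondrial DNA at 5.86. Chromatin regulators came to 0.16 (40 of 54), from 0.61 above the median of all genes. Below genes of their length lay translation factors (-0.57), ribosomal proteins (-0.54), mitochondrial ribosomal proteins (-0.54), mitochondrial matrix proteins (-0.49), glycolysis (-0.45), the respiratory chain (-0.42) and histones (-1.01, 0 of 48 above). Translocon genes (-0.20), the proteasome (-0.46), tail-anchored proteins (-0.26), coats (-0.23) and lipid enzymes of the cytosol (-0.20) lay below genes of their length as well. Secreted signals (0.24), glycosylation enzymes (0.21) and lysosomal and Golgi proteins (0.19) lay above.

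The extreme values of the whole table were set by other RNAs. Of the 15 largest rises at 20 TPM or more, 0 were coding, 5 were nuclear copies of mitochondrial DNA and 8 rested on 3 estimated reads or fewer. MTATP6P1, such a copy, stood at 72.7 and 103.6 TPM in CE and 8518 and 11143 in ME (6.79 ± 0.24), and MTCO1P12 differed by 6.46 ± 0.15. These copies are nearly identical to mitochondrial genes and can take their reads. Of the 15 largest falls 13 were pseudogenes and 1 was coding, IFI27L2, an interferon-inducible gene at 29.4 and 22.6 TPM in CE and 4.6 and 1.15 in ME. Restricted to coding genes with 10 estimated reads or more (a choice made after the values were seen), AHNAK, a giant scaffold protein, led with 34.6 and 39.99 TPM in CE and 297.4 and 378.5 in ME (3.14 ± 0.15), followed by VCAN, AGRN and LRP1.

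The same comparison on day 0, before differentiation, was set against day 3 by an interaction term, and the days share no library. On its own, day 0 gave 6847 of 19248 genes higher in ME (35.6%) and 968 lower (5.03%). Of 21202 genes tested, 884 had a higher difference on day 3 (4.17%) and 959 a lower one (4.52%), or 1255 (5.92%) and 630 (2.97%) with a common median. Many of the genes with a lower difference were at low levels: with a mean of at least 5 TPM required, 782 were higher and 295 lower. Medians on day 0 were 1.48 for extracellular matrix, 1.18 for receptors and 0.85 for adhesion, against 0.63 for all genes, while secreted signals had 0.43 and KRAB factors 1.4. Of the 53 matrix genes 7 rose further on day 3 and 0 fell, beside 857 and 417 of the 16746 genes compared on day 3. FN1 had 36.1 and 36.7 TPM in CE and 79.7 and 79.6 in ME on day 0, a difference of 1.11, against 2.22 on day 3 (interaction 1.11 ± 0.12, adjusted p = 0.000724, limma). VCAN (1.05 ± 0.15), COL12A1 (1.33 ± 0.17) and CDH1 (1.07 ± 0.10) moved likewise. HSPA5 stood at 1105 and 1082 TPM in CE and 1594 and 1598 in ME on day 0, so its difference went from 0.54 to 1.81 (interaction 1.27 ± 0.09). The call was lost without the second ME library for FN1 (0.99) and VCAN (0.92), and without the first CE library for VCAN (0.93) and CDH1 (0.97).

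Lists of cytosolic and nuclear proteins differed from each other. Of the 16746 genes compared on day 3, from which list members come, 857 had a higher difference than on day 0 and 417 a lower one. With a common median these were 1216 and 237. The 5 lists given first were picked for their large counts. Proteasome and chaperonin subunits had 9 of 45 higher on day 3 and 0 lower (15 and 0 with a common median), the cytoskeleton 13 of 51, coat and vesicle proteins 10 of 41, splicing factors 11 of 50 and cell cycle genes 11 of 48, each with 0 lower. Their medians on day 0 were -0.91, -0.21, -0.32, -0.06 and -0.30, and on day 3 -0.19, -0.04, 0.44, 0.41 and 0.49. Smaller counts were called in other such lists. Ribosomal proteins had 0 of 74 higher and 3 lower, histones 0 of 48 and 0, and KRAB factors 0 of 51 and 2. Transducers had 3 of 50 and 0, translation factors 3 of 42 and 1, glycolysis 4 of 39 and 1, and chromatin regulators 7 of 54 and 1. The medians of transducers, translation factors, glycolysis and chromatin regulators were 0.48, -0.46, -0.45 and 0.83 on day 0. On day 3 they were higher, at 0.69, -0.05, -0.03 and 1.31. Those of ribosomal proteins, histones and KRAB factors were not, at -0.66, -1.44 and 1.40 on day 0 and -0.95, -1.47 and 1.23 on day 3. EIF4G1 had 549.4 and 554.9 TPM in CE and 472.1 and 463.3 in ME on day 0, below CE, and 359.9 and 403.7 against 1020 and 1032 on day 3 (interaction 1.67 ± 0.09). HSPA8 had 3643 and 3527 TPM in CE against 2035 and 2031 in ME on day 0, and its difference went from -0.82 to 0.50 (interaction 1.32 ± 0.05), the latter -0.29 with a common median. CLTC (1.76), the splicing cofactor SON (1.45), HMGCS1 (1.33), VIM (1.28), CDC20 (1.21), DYNC1H1 (1.2), LDHA (1.19), PKM (1.09), EEF2 (1.08) and FASN (1.08) were called in the same direction. NORAD, a cytoplasmic lncRNA that binds Pumilio proteins, went from 1453 and 1462 against 1323 and 1336 TPM to 1177 and 1315 against 2520 and 2687 (1.2 ± 0.08). In the other direction, MIXL1 moved further to CE (-1.01 ± 0.15), a call lost with a common median (-0.90), and it stood at only 2.56 to 4.98 TPM on day 0. Without the first CE or the first ME library of day 3 MIXL1 was not called either (-0.96 and -0.94). ZNF480, a KRAB factor, lost part of its ME excess (-1.46 ± 0.20), from 139.7 and 132.3 TPM in day 0 ME to 33.4 and 40.7. NR2F2, called with a rise of 1.38, was under 1 TPM on day 0.

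**Figure D4:**
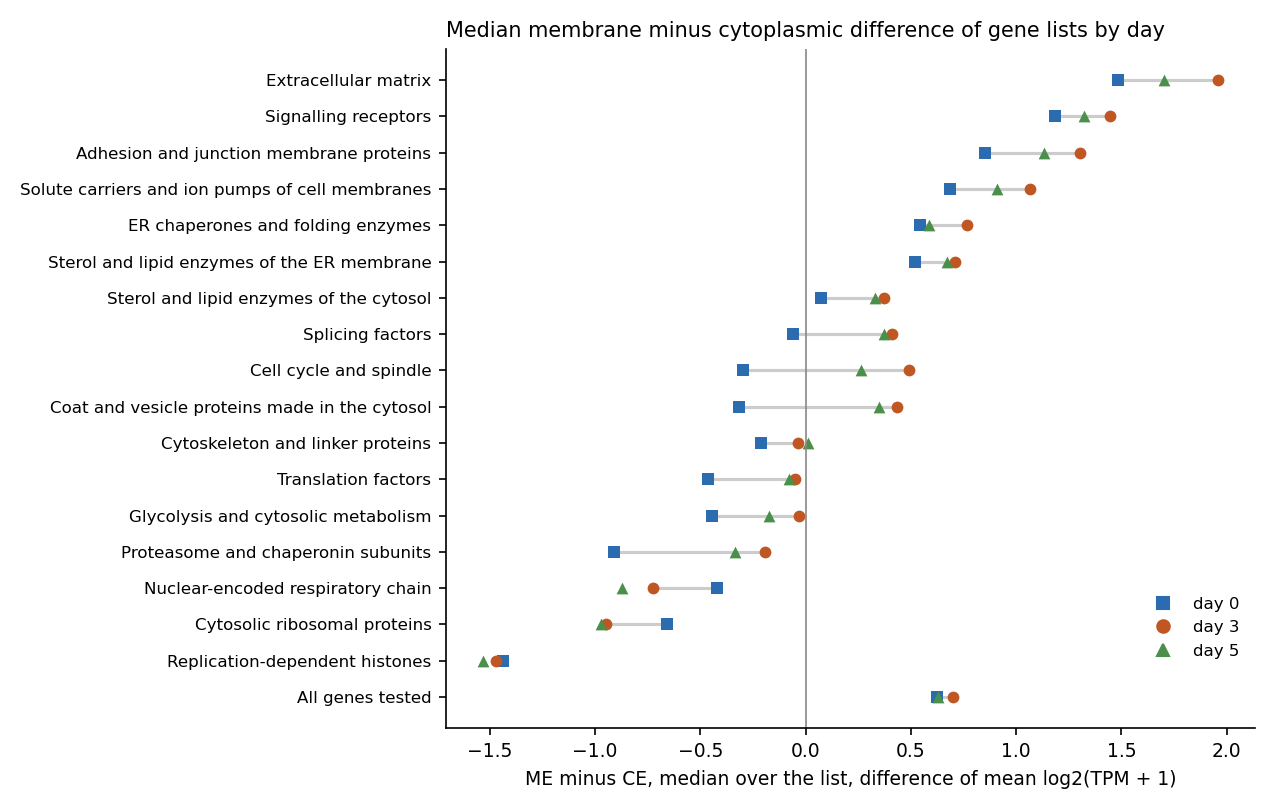
Median difference between ME and CE (horizontal axis) of 17 gene lists and of all genes tested, on day 0 (squares), day 3 (circles) and day 5 (triangles). The proteasome, coat, cell cycle and translation lists sit further left on day 0 than on days 3 and 5, while histones stay near -1.5 on the 3 days.

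Several genes with a large gain from day 0 had few exons. Among coding genes with 10 estimated reads or more, SOX14, a transcription factor (2.28 ± 0.33), PEG10, derived from a retrotransposon (2.22 ± 0.08), MAGEE1 (2.19 ± 0.18) and HSPA2, a heat shock protein (2.09 ± 0.10), were near the top. SOX14 was listed at 0 in both day 0 ME libraries. SOX14 and MAGEE1 are annotated with 1 exon, HSPA2 with its coding sequence in 1 exon. PEG10 had 206.8 and 213.3 TPM in CE and 108.9 and 107.4 in ME on day 0, and 322.2 and 359.0 against 798.3 and 838.7 on day 3. Exon number was then looked at for every coding gene other than the histones. Of 262 genes with a single exon, 88 were called higher on day 3 than on day 0 (33.6%) and 3 lower (1.15%), against 652 of 12455 coding genes (5.23%) higher. Single-exon genes had medians of -0.58 before differentiation, 0.45 on day 3 and 0.28 on day 5. Genes with 1 coding exon and further exons gave 17.5% of 423, genes with 2 to 3 coding exons 9.19% of 1317, and those with 4 to 9, 10 to 20 and over 20 coding exons gave 3.37%, 3.09% and 5.04%. In transcripts of 2 to 3 kb alone, single-exon genes gave 28 of 83 (33.7%) and genes with 10 to 20 coding exons 22 of 1094 (2.01%). The single-exon genes together took 3.50% and 3.53% of the day 0 CE libraries but 2.03% and 2.07% of day 0 ME. On day 3 they took 3.13% and 3.30% of CE and 3.48% and 3.31% of ME. At the other end, GPR3, a receptor with 1 coding exon (-1.5 ± 0.13), and GTF3A, a factor of 5S rRNA transcription with 9 (-1.5 ± 0.08), lost most among such genes that are named.

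**Figure D5:**
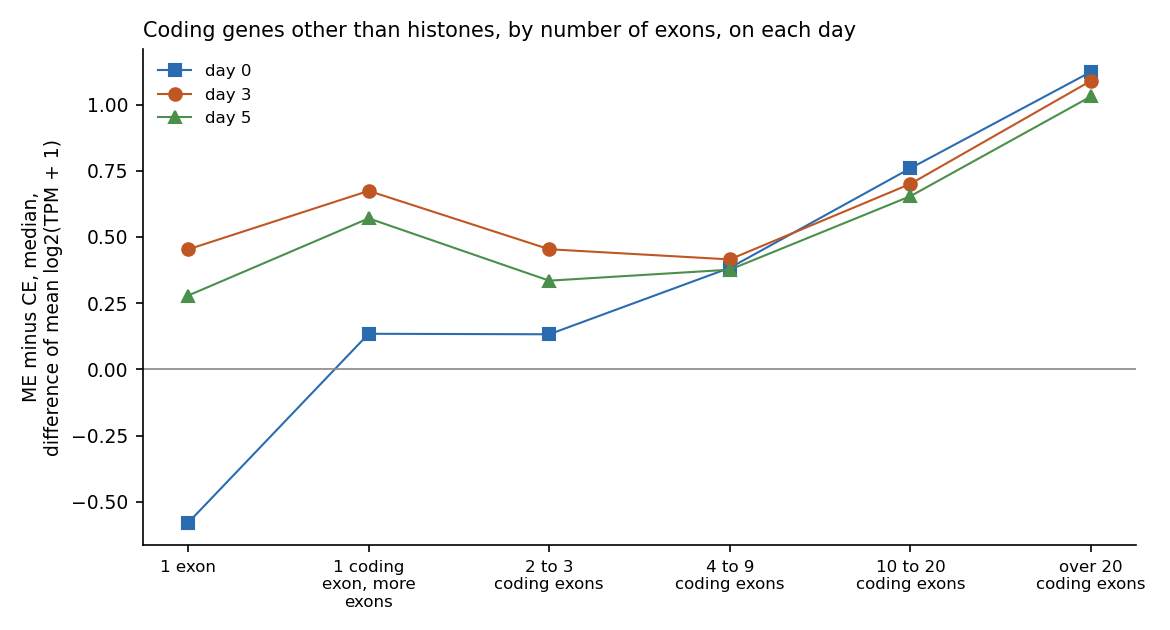
Median difference between ME and CE (vertical axis) of coding genes other than histones, by annotated number of exons (horizontal axis), on day 0 (squares), day 3 (circles) and day 5 (triangles). Single-exon genes lie at -0.58 on day 0 and at 0.45 and 0.28 on days 3 and 5, while the days nearly coincide from 4 coding exons upwards.

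Few genes differed between day 3 and day 5. Day 5 alone gave 5032 of 17245 genes higher in ME (29.2%) and 646 lower (3.75%), and its contrast with day 3 shares the day 3 libraries with that of day 0. The difference between ME and CE was higher on day 3 for 20 of 21202 genes (0.0943%) and lower for 31 (0.146%), or 27 (0.127%) and 53 (0.25%) with a common median. Without the first CE replicate of day 3 the 20 became 12. Coding genes called higher on day 3 included IRX3, a homeobox factor (1.85 ± 0.26), FGF4, a growth factor (1.26 ± 0.15), LZTS1 (1.19 ± 0.10) and BMP2, a BMP ligand (1.11 ± 0.13). FGF4 had 32.3 and 30.8 TPM in CE and 48.0 and 43.5 in ME on day 3, and 52.1 and 57.0 in CE and 31.7 and 32.7 in ME on day 5, and with a common median its day 3 difference of 0.52 became -0.27. BMP2 stood under 10 TPM in all 4 libraries of day 3 and at 45.0 to 50.0 on day 5. FOSB, an immediate early factor (-2.15 ± 0.23), and IQCN (-1.34 ± 0.18) had the larger difference on day 5, when FOSB reached 80.1 and 96.8 TPM in ME against 6.69 and 8.19 in CE. Leaving out 1 day 3 library in turn ended the call of IQCN and BMP2 for each of the 4 libraries, and of IRX3, FGF4 and FOSB for 3 of them (adjusted p, limma, 0.0501 to 0.0982).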

How the data were processed

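Total RNA libraries were made from each extract, per the labels' protocols. The deposited table holds TPM values for 36 libraries, 1 column each. That the unit is TPM was read from the values, whose columns sum to nearly the same total, and the submitters' processing notes name the aligner HISAT2 2.0.5, the counter featureCounts 1.6.2, the quantifier Salmon 1.3.0, GATK and build hg38, with no statement of their roles, so which tool made the values is not given in the sources used here.

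Genes named MT- were removed and each column was rescaled. Genes of at least 1 TPM in 2 libraries were tested on log2(TPM + 1) with limma 3.58.1 (R 4.3.3; trended, robust variance; Benjamini-Hochberg over all genes tested). Fold changes on this scale understate those of low genes. Comparisons between days used 12 libraries and an interaction term. With 2 libraries against 2, an exact permutation test of 1 gene cannot go below p = 0.333. On simulated data with 200 changed genes among 16746, 100% were recovered at log2 sizes of 1.5 and 2.5, with 0 false calls. There the changed genes were drawn from the better expressed ones, noise was independent between genes, and the median was not shifted. The simulation therefore checks the working of the fit only. It cannot tell how reliable calls are at low levels or under the shift of the real libraries.

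Named genes were the 15 largest changes each way at 20 TPM or more, list anchors plus up to 4 called members each way at 10 TPM or more, and 8 each way per contrast of days. These gave many pseudogenes and small RNAs, so coding genes with 10 estimated reads or more were added after the values were seen, as were the 10-read filter, the 20 length bins, exon number and the values of SNE. Members and lists were chosen with earlier results of these data known, and no list was tested as a set. Coding sequences, lengths and exons came from GENCODE 29 (GRCh38). A few genes the rule names are not reported here, though list counts include them. The polyA libraries were not used here.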

Additional observations from a re-analysis of the deposited data

Results flagged for a closer look

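The difference between ME and CE was itself different between days for some genes, tested by an interaction term (limma, adjusted p under 0.05 and a size of at least 1). Against day 0 it was higher on day 3 for 884 genes and lower for 959. Against day 5 it was higher for 20 and lower for 31.

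Values that follow are day 3 minus day 0, on the log2(TPM + 1) scale. Secreted and surface proteins and the ER gave 1.11 for FN1, 1.05 for VCAN, 1.33 for COL12A1, 1.27 for HSPA5 and 1.07 for CDH1. Cytosolic enzymes and coats gave 1.33 for HMGCS1, 1.08 for FASN, 1.76 for CLTC, 1.09 for PKM and 1.19 for LDHA. Translation, folding and the cytoskeleton gave 1.665 for EIF4G1, 1.08 for EEF2, 1.315 for HSPA8, 1.28 for VIM and 1.2 for DYNC1H1. Among genes of the cell cycle and the nucleus CDC20 had 1.21, SON 1.45, NORAD 1.2 and NR2F2 1.38. PEG10 had 2.22, HSPA2 2.09, SOX14 2.28 and MAGEE1 2.19. Lower on day 3 were MIXL1 (-1.01), ZNF480 (-1.465), GPR3 (-1.5) and GTF3A (-1.495).

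Day 3 minus day 5 was 1.85 for IRX3, 1.26 for FGF4, 1.11 for BMP2, 1.19 for LZTS1, -2.15 for FOSB and -1.34 for IQCN.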

How the results depend on the processing

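Counts of genes called varied with the scaling, and also with the pseudocount, the filter and the libraries used. The main comparison tested 16746 genes. The number tested was 10663 with 10 estimated reads or more and 15523 with MT- genes kept in. It was 17126 without histone and ribosomal protein mRNAs in the totals. Higher in ME were 2138 with a pseudocount of 5, 392 with MT- genes kept in, 575 with a common median, 973 after quantile normalisation, 3249 with 10 estimated reads or more (an alternative chosen after seeing the data) and 306 against INPUT, and 3683 to 5490 when a library was left out. Lower were 2473 with MT- genes kept in, 2157 with a common median, 1361 after quantile normalisation, 851 without histone and ribosomal protein mRNAs in the totals, 274 with 36 libraries in the fit and 81 for INPUT against CE, and 450 to 829 with a library left out. The cause was not tested.

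Day 3 minus day 0 gave 1705 higher with MT- genes kept in and 397 with 36 libraries (679 to 1052 with a library left out), and lower 450 with a pseudocount of 0.1, 549 with 5, 295 at a mean of 5 TPM, 147 with MT- genes kept in, 630 with a common median and 498 with 36 libraries (794 to 1192). Day 3 minus day 5 gave higher 6 at a mean of 5 TPM, 8 with 36 libraries and 31 without a trended prior (12 to 27), and lower 5, 14 and 57 in the same order, 18 with MT- genes kept in and 53 with a common median (24 to 26). Where a library was left out of an arm, the lone sample was assumed to vary like the others. The replicate block gave 4944 higher and 542 lower on day 3, 876 and 950 against day 0, and 17 and 27 against day 5. Deviations of same-numbered libraries correlated at 0.042, so the numbers were not read as pairs. With the block, the call of 118 named day 3 genes was unchanged and 1 of 33 genes compared between days lost its call. Of the 118, 12 lost their call with 36 libraries, 11 after quantile normalisation, 27 with a common median, 35 with MT- genes kept in and 2 to 9 with a library left out. Of the 33, the losses were 12, 9, 1, 4 and 4 to 8.

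N-terminal stretch minus no stretch was 0.12 at stricter hydropathy and 0.17 at a mean of 5 TPM, where further stretches stood 0.33 above and rho with length was 0.66.

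List medians minus that of all genes changed sign as follows. Against INPUT they were 0.020 (translocon), 0.047 (glycolysis), 0.083 (cytoskeleton), 0.11 (cell cycle), 0.13 (mesoderm factors), 0.26 (pluripotency), 0.16 (splicing), -0.62 (nuclear lncRNAs) and 0.23 (structured RNA), and for INPUT against CE -0.27 (ER chaperones). ER chaperones had -0.029 and -0.0016 with pseudocounts of 0.1 and 5 and -0.11 with MT- genes kept in. A pseudocount of 5 gave 0.044 (cell cycle), 0.23 (pluripotency) and 0.18 (structured RNA). No filter gave 0.0012 (coats), 0.050 (cell cycle), 0.22 (pluripotency) and 0.16 (structured RNA). Quantile normalisation gave 0.12 (cytoskeleton), 0.16 (cell cycle), 0.45 (pluripotency), 0.36 (splicing) and 0.86 (structured RNA). Pluripotency had 0.013 with 10 reads, and length bins gave 0.0053 (pluripotency) and 1.2 (structured RNA).

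Single genes changed sign as well. Some were near 0 in the main comparison, and others were not, such as SEC61A1 (0.92), STT3A (0.84) and BMP4 (0.61). With MT- genes kept in, SLC7A5 had -0.048, BMP4 -0.39, CALR -0.59, STT3A -0.14, SEC61A1 -0.074, HMGCS1 -0.26, VAPA -0.78, SDHA -0.091, HSPD1 -0.95, PKM -0.95, HSPA8 -0.50, HAND1 -0.93, DNMT3B -0.33 and CTNNB1 -0.13. With a common median, BMP4 had -0.18, CALR -0.38, HMGCS1 -0.056, VAPA -0.59, HSPD1 -0.74, PKM -0.74, HSPA8 -0.29, HAND1 -0.75 and DNMT3B -0.11. Quantile normalisation gave VAPA -0.27, ACTB 0.25, VIM 0.33 and HAND1 -0.38, and totals without histone and ribosomal protein mRNAs gave VAPA -0.029, HSPD1 -0.18, PKM -0.18 and HAND1 -0.18. With a library left out DKK1 ran from -0.86 to 0.37, PKM from -0.0024 to 0.094, VIM from -0.13 to 0.013 and HAND1 from -0.18 to 0.26. Values under 10 estimated reads are coarse, and extremes among low transcripts rest on few reads.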
